A study of Rattus norvegicus with 49 samples.

Results

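The cytosolic ribosomal protein genes of rat liver were taken from the array annotation by symbol: every gene whose symbol begins with Rpl or Rps followed by a digit, the letter p or the letter a, leaving out the Rps6k kinases. Of 14217 genes with a probe set of their own, 50 met this rule, 34 of the large and 16 of the small ribosomal subunit. Among them 42 are standard ribosomal proteins, out of 79 such genes listed (47 large, 32 small), and the other 8 are paralogs (Rpl26l1, Rpl7l1, Rpl3l, Rpl39l1, Rps27l, Rps4y2) and pseudogenes (Rpl37-ps2, Rps4x-ps1). A further 36 probe sets of ribosomal proteins carry several symbols at once and are described apart, as probe sets without names.

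The study asked how the liver answers a controlled cut in food, and measured whole liver of 49 male Sprague Dawley rats, 1 array per rat, at day 4 or day 14. Group 1 ate ad libitum and was not fasted, and group 2 ate ad libitum and was fasted overnight before sampling. Groups 3, 4 and 5 were given 15%, 30% and 60% less food than ad libitum and were also fasted. Each group had 5 rats on each day, apart from group 1 at day 14, which had 4. Sample labels name group 1 as unfasted, while the general description of the series has all animals fasted overnight. No rat was sampled at both days, and day cannot be told apart from age or from any batch that went with it. In whole liver, fewer cells of a type and less RNA per cell cannot be told apart.

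Ribosomal proteins are built in the cytoplasm, carried to the nucleolus and joined there with ribosomal RNA into the large and small subunits, so that a cell needs them in matched amounts. Many of their mRNAs begin with a cytosine and a run of pyrimidines, the terminal oligopyrimidine (TOP) tract, through which their translation follows nutrient signals from the kinase mTORC1. Liver makes plasma proteins and enzymes in bulk and adjusts its ribosome content to feeding.

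The starts of these genes are shown first because the TOP tract is the sequence that ribosomal protein mRNAs are best known to share. RefSeq windows of assembly GRCr8 were found for 43 of the 50 genes, on 14 chromosomes. Each line gives 30 bases 5′ to 3′ on the strand of the gene, with 10 bases before the annotated start, and capitals mark a C followed by at least 4 bases that are each C or T, read on the sense strand and beginning within 5 bases of that start. The first 6 genes rose in group 5 at day 14 and hold such a run, and Rpl21 rose without it. Rpl28, whose signal was weak, holds it and was not called, and Rps27l has neither the run nor a rise. These genes are examples and do not show how often genes that rose hold the run, for which counts are given below.
Rpl12, chr3:36661930-36661959, plus strand: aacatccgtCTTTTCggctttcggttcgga
Rpl35, chr3:43165902-43165931, minus strand: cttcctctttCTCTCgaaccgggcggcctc
Rps24, chr16:96507-96536, plus strand: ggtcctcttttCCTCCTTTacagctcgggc
Rpl22, chr5:168117951-168117980, plus strand: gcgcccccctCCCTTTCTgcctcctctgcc
Rpl37a, chr9:81748081-81748110, plus strand: cccgttgcgtCTCTTCCTCTTCgggcttgg
Rplp0, chr12:46718371-46718400, minus strand: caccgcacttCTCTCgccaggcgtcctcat
Rpl21, chr12:13386134-13386163, minus strand: ttccgccggggcagccatcttccaggttgg
Rpl28, chr1:78083513-78083542, minus strand: cccctagtgtCTTTCTTTCCgtctccggcc
Rps27l, chr8:76443648-76443677, plus strand: ttcatttgtcattatttgtggtgtccagag

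Exactly at the annotated start, the run was found in 12 of the 43 windows (27.9%), against 2.63% of all 33469 RefSeq windows of the same length. Within 5 bases of the start it was found in 22 of 43 (51.2%), against 17% of all windows. The letters CCGGAAG, which ETS factors bind, were searched on both strands, and their reverse complement CTTCCGG can overlap with the pyrimidine run. They were present in 10 of the 43 windows of 300 bases (23.3%), against 8.75% of all windows. These are matches of letters near annotated starts, which need not be the starts used in liver.

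Most of these genes were among the brightest on the array. Their values are log2 of the normalized intensity, and since intensities depend on the probes, those of different genes do not rank the amounts of mRNA. Over all 49 rats the median gene of the list had a mean log2 intensity of 12.66, against 7.42 for all genes, and 38 of the 50 lay above the 90th percentile. Those 38 are all standard ribosomal proteins, 26 large and 12 small, with means from 11.46 to 13.85, and are called the bright genes below. The brightest were Rps29 (13.85), Rps23 (13.51), Rpl7a (13.40), Rpl41 (13.33) and Rps16 (13.28). Of the rest, Rpl7l1, a nucleolar relative of Rpl7, stood at 10.13 and Rps27l, a paralog of Rps27 that p53 induces, at 8.17.

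The remaining 10 were dim, between 3.59 and 6.78, and differences in them rest on weak signals. For 6 of them, under the 25th percentile of all genes, these lie near the low end of the array. The 10 dim genes were Rps4x-ps1, Rpl28, Rpl30, Rpl39l1, Rpl37-ps2, Rpl3l, Rps13, Rpl26l1, Rps4y2 and Rpl39. Of these, Rpl28, Rpl30, Rpl39 and Rps13 are standard ribosomal proteins whose only single-symbol probe set gave little signal. A filter at the 25th percentile of mean intensity, log2 5.68, kept 44 of the 50 genes.

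Ribosomal protein genes stood highest in rats given 60% less food for 14 days. For each rat, the deviation of every bright gene from its own mean over all rats was averaged over the 38 genes. The 5 rats of group 5 at day 14 had mean deviations of 0.14, 0.17, 0.18, 0.22 and 0.32 on the log2 scale, and each lay above all 44 other rats, of which the highest, in group 5 at day 4, was at 0.11. The group means at day 14 were -0.065 ± 0.064 (SD, n = 4) in group 1, -0.048 ± 0.052 in group 2, -0.015 ± 0.030 in group 3, 0.029 ± 0.057 in group 4 and 0.21 ± 0.071 in group 5 (SD, n = 5 each). At day 4 they ran from -0.073 ± 0.060 in group 1 to 0.044 ± 0.062 in group 5 (SD, n = 5 each). Apart from group 5 at day 14, neighbouring groups overlapped. In group 5 at day 14 the means were 0.21 ± 0.072 for 26 large and 0.19 ± 0.068 for 12 small subunit genes (SD, n = 5 each). Between the controls the large subunit mean was lower and the small subunit mean higher in group 1, with overlapping groups and no test of the difference. At day 4 the large subunit mean was -0.086 in group 1 and -0.043 in group 2 and the small subunit mean -0.046 and -0.063, and at day 14 the values were -0.074 and -0.044, and -0.046 and -0.057 (n = 5 each, 4 in group 1 at day 14). Of the summed intensity of all 14217 genes, the 38 bright genes made up 3.22% ± 0.15 in group 5 at day 14. In group 2 of the same day they made up 2.68% ± 0.082 (SD, n = 5 each).

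**Figure D1:**
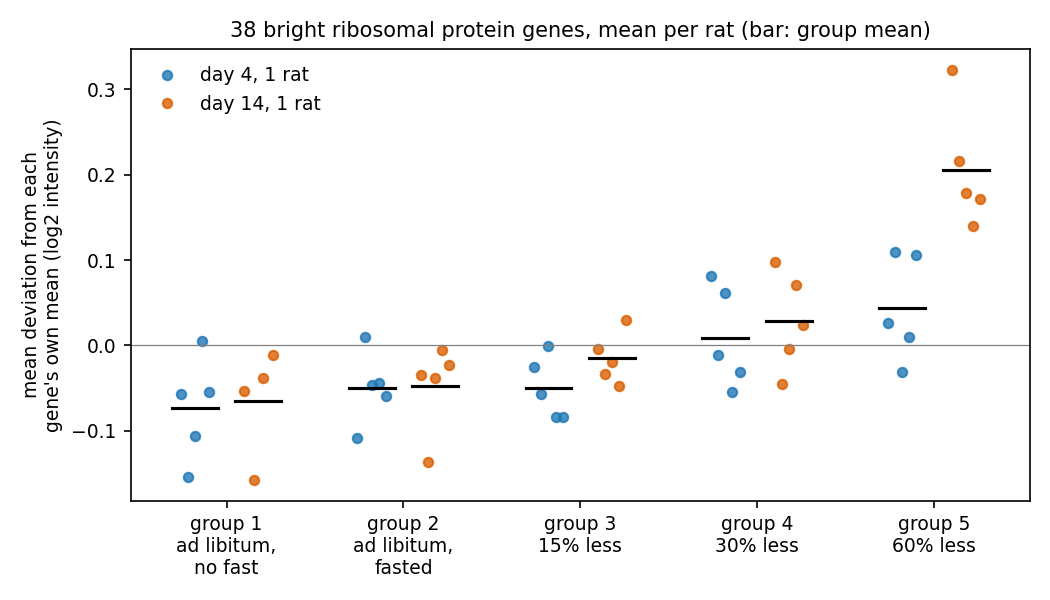
Mean deviation of the 38 bright ribosomal protein genes from each gene's own mean over all rats (log2 intensity, vertical axis) in the 5 diet groups; each point is 1 rat, blue for day 4 and orange for day 14, and the bar is the group mean. The 5 rats of group 5 at day 14 sit between 0.14 and 0.32, above every other rat.

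With 60% less food for 14 days, 35 of the 50 genes were called higher than in the fasted control, group 2, and 0 were called lower. A gene is called where limma's adjusted p, with Benjamini-Hochberg adjustment over all 14217 genes, was under 0.1. Of all genes, 8.88% were called higher and 10.9% lower in this comparison. The median log2 difference over the 50 genes was 0.24, against 0.0033 over all genes. The called genes were 24 of 34 large and 11 of 16 small subunit genes, and in 34 genes every rat of group 5 lay above every rat of group 2, which held for 5.28% of all genes. All 38 bright genes had a positive difference, between 0.038 and 0.40, and 33 of them were called. The rises were small in size, at most 1.32-fold, and of similar size across genes.

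**Figure D2:**
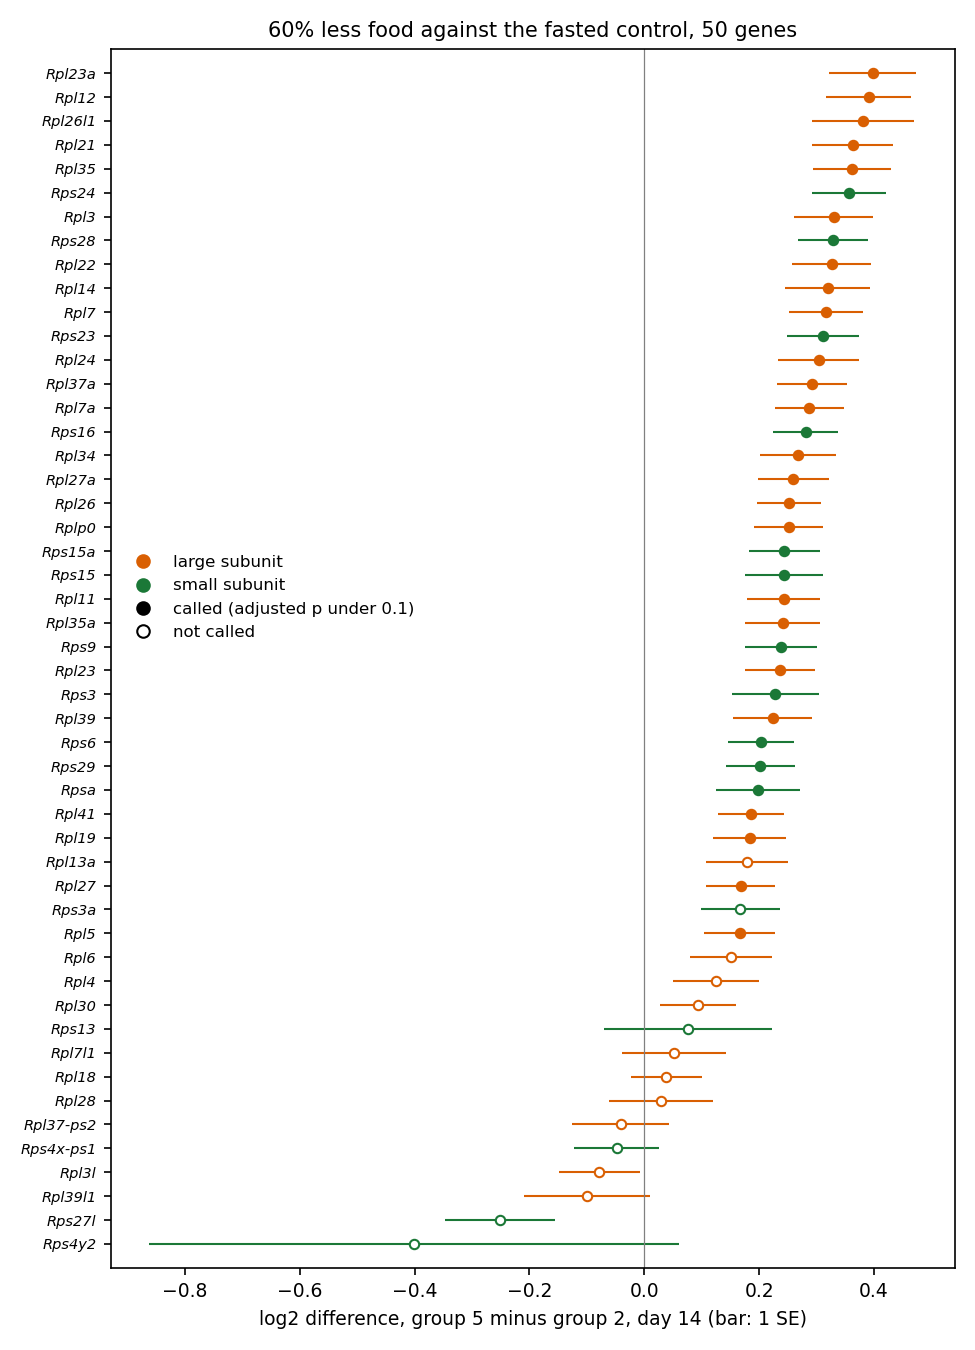
Log2 difference between group 5 and group 2 at day 14 (horizontal axis) for the 50 genes in order of size, with bars of 1 SE (n = 5 rats per group); filled points are called genes, orange for the large and green for the small subunit. The 35 called genes all lie to the right of 0, and Rps27l and Rps4y2 lie farthest to the left.

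The proteins around the exit of the tunnel, where the growing chain leaves the large subunit, included the gene with the largest difference. Rpl23a, which forms part of the docking site for the signal recognition particle, had log2 levels of 11.79, 11.83, 11.85, 11.87 and 11.90 in the rats of group 2 at day 14 and of 12.07, 12.17, 12.25, 12.27 and 12.47 in group 5. The groups did not overlap, and the difference was 0.40 ± 0.076 (SE, n = 5 and 5; adjusted p = 0.00455), a 1.32-fold rise. Rpl35, its neighbour at the exit, lay between 12.55 and 12.79 in group 2 and between 12.99 and 13.17 in group 5, again without overlap (difference 0.36 ± 0.068 (SE), adjusted p = 0.00408). Of the 7 genes on the tunnel list, Rpl19, Rpl22, Rpl26 and Rpl39 also rose, by 0.18 to 0.33. Rpl4, which lines the tunnel, had a difference of 0.13 ± 0.075 (SE) and was not called.

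Both measured genes of the stalk, the arm of the large subunit that brings in elongation factors, rose. Rpl12, at the base of the stalk, had levels of 12.34, 12.51, 12.55, 12.56 and 12.62 in group 2 and of 12.79, 12.85, 12.92, 12.96 and 13.03 in group 5. Every rat of group 5 was above every rat of group 2, with a difference of 0.39 ± 0.073 (SE, n = 5 and 5; adjusted p = 0.00409). Rplp0, which anchors the stalk proteins, ran from 12.75 to 12.84 and from 12.96 to 13.16, a difference of 0.25 ± 0.061 (SE). Rpl5 and Rpl11, which carry 5S ribosomal RNA into the large subunit and when free bind the p53 regulator Mdm2, rose by 0.17 ± 0.062 and 0.24 ± 0.064 (SE each).

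Other large subunit genes with clear rises were Rpl21 and Rpl3. Rpl21 had levels of 11.25 to 11.42 in group 2 and of 11.60 to 11.83 in group 5 (difference 0.36 ± 0.071 (SE), adjusted p = 0.00488). Rpl3, which reaches into the peptidyl transferase centre, ran from 12.83 to 13.07 and from 13.19 to 13.41 (difference 0.33 ± 0.068 (SE)). Rpl18 stood out among the bright genes with a difference of 0.038 ± 0.062 (SE), its rats at 12.48 to 12.61 in group 2 overlapping those at 12.52 to 12.69 in group 5. The other 4 bright genes that were not called, Rpl4, Rpl6, Rpl13a and Rps3a, had differences of 0.13 to 0.18 and overlapping groups.

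In the small subunit, Rps24, needed to process the precursor of small subunit RNA, rose the most. Its levels were 12.49, 12.50, 12.59, 12.62 and 12.67 in group 2 and 12.87, 12.87, 12.93, 12.94 and 13.03 in group 5, with no overlap and a difference of 0.36 ± 0.064 (SE, n = 5 and 5; adjusted p = 0.0033). Rps3, Rps28 and Rpsa, which line the paths by which mRNA enters and leaves, rose by 0.23 ± 0.076, 0.33 ± 0.062 and 0.20 ± 0.073 (SE each). Rps6, the target of the S6 kinases downstream of mTORC1, lay between 13.16 and 13.28 in group 2 and between 13.35 and 13.49 in group 5, a rise of 0.20 ± 0.057 (SE, adjusted p = 0.0334). Rps23, of the decoding centre, rose by 0.31 ± 0.063 (SE).

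The paralogs and pseudogenes did not share this pattern, apart from Rpl26l1. This close relative of Rpl26 was dim, with levels of 6.19 to 6.52 in group 2 and 6.63 to 6.92 in group 5, and rose by 0.38 ± 0.089 (SE, adjusted p = 0.0134). Rps27l ran the other way, with 8.01, 8.02, 8.10, 8.29 and 8.30 in group 2 and 7.72, 7.81, 7.84, 7.93 and 8.15 in group 5. These groups overlapped, and the difference of -0.25 ± 0.096 (SE) was not called (adjusted p = 0.106). Rps4y2 varied widely within groups, from 4.95 to 7.53 in group 2 alone, and its difference of -0.40 ± 0.46 (SE) was not called. Rpl3l, the paralog of Rpl3 found in muscle, was at -0.079 ± 0.071 and Rpl7l1 at 0.052 ± 0.090 (SE each), neither of them called. Of the 8 genes that are not standard ribosomal proteins, 1 was called higher and the median difference was -0.063.

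**Figure D3:**
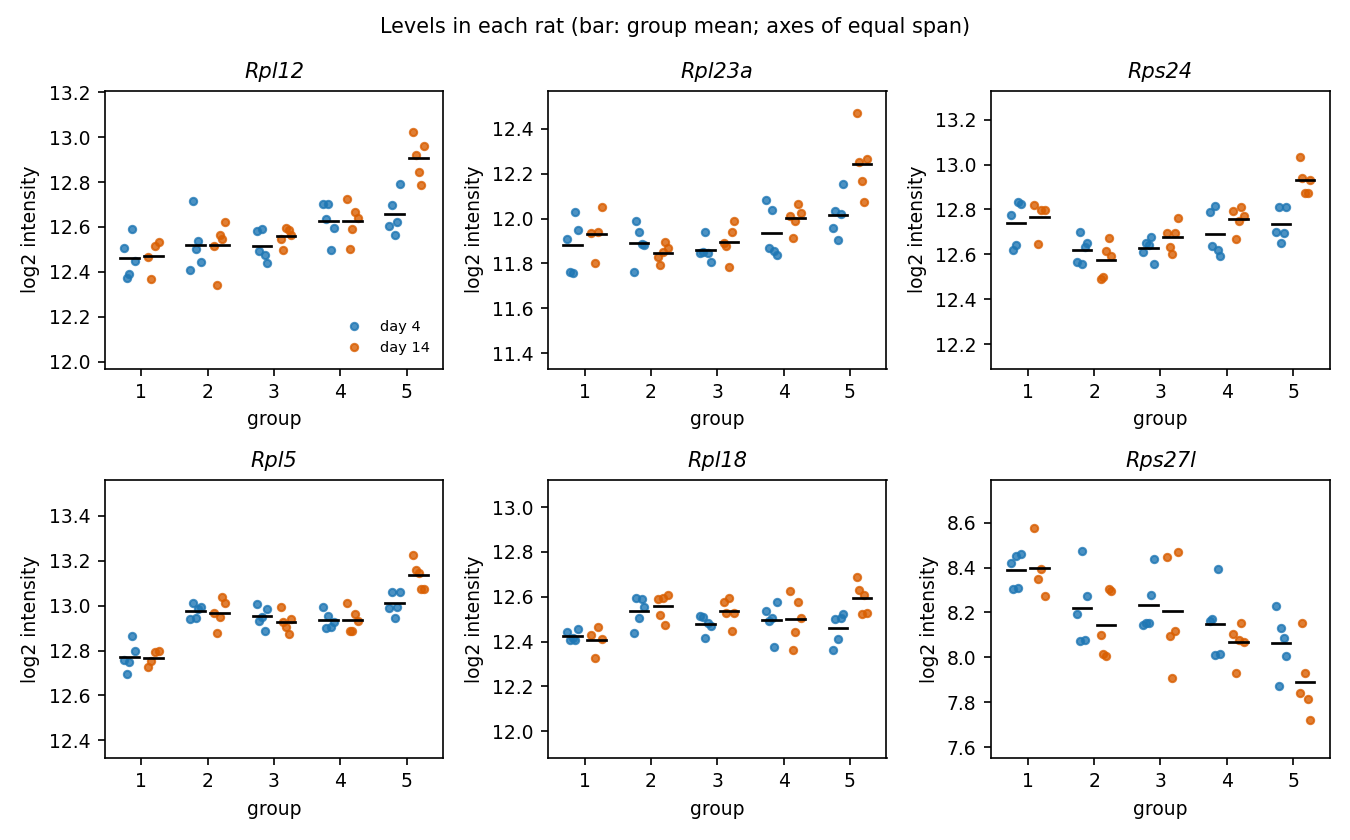
Log2 intensity (vertical axes of equal span) of 6 genes in every rat by diet group, blue for day 4 and orange for day 14, with bars for group means. Rpl12, Rpl23a and Rps24 are highest in group 5 at day 14, Rpl5 is lowest in the unfasted group 1, Rpl18 varies little, and Rps27l is lower in group 5 than in group 1 at both days.

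The direction of the difference was shared across probe sets. For the 6 genes with more than 1 single-symbol probe set, namely Rpl14, Rpl3, Rpl7, Rpl7l1, Rps24 and Rpsa, all probe sets had positive differences. They ran from 0.052 and 0.059 for Rpl7l1, which was not called, to 0.36 and 0.43 for Rps24. The second probe set of Rpl14, dim at a mean of 5.03, had 0.13 against 0.32 for the one used. Of the 36 ribosomal probe sets with several symbols, 28 were called higher and 0 lower, and all 36 differences were positive with a median of 0.26. Those probe sets can share transcripts with the 50 genes and with near-identical copies, and are no separate sample of the ribosome. Among bright standard genes with a RefSeq window, the median difference was 0.26 for the 10 with the pyrimidine run at the annotated start and 0.24 for the 24 without it, and 9 of 10 and 20 of 24 were called. By the wider rule, a run within 5 bases of the start, 16 of 18 with it and 13 of 16 without it were called. Their median differences were 0.26 and 0.24.

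Milder restriction gave smaller differences from group 2, which is the shared control of all these comparisons. At day 14, 30% less food left 1 gene called higher, against 6.52% of all genes, and 0 lower, against 6.24%, with a median difference of 0.070 over the 50 genes. That gene was Rps24, at 12.67 to 12.81 against 12.49 to 12.67 in group 2 (difference 0.18 ± 0.060 (SE), adjusted p = 0.0864), and the call was lost without any 1 of rats 1, 2, 3 and 5 of group 2 and of rats 1, 3, 4 and 5 of group 4. With 15% less food 0 genes were called in either direction at day 14, against 3.4% of all genes higher and 3.14% lower. At an unadjusted p under 0.05, 0 of the 50 passed in that comparison and 11 did with 30% less food, all 11 higher. Counts at an unadjusted p and counts of signs, here and below, stand without the share of all genes. They only describe the list, since the bright genes varied together and are not independent. In 11 genes every rat on 30% less food lay above every rat of group 2, as in 4.22% of all genes.

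At day 4 the restricted groups stood in the same order at lower size, but 15% less food did not stand above group 2. The mean deviation of the bright genes was -0.050 ± 0.036 with 15% less food and -0.049 ± 0.042 in group 2 (SD, n = 5 each). With 60% less food, 2 genes were called higher, against 3.56% of all genes, and 0 lower, against 3.58%, with a median difference of 0.094. Of the 50 differences 43 were positive, and in 7 genes the groups did not overlap, as in 2.83% of all genes. Rps29, a small zinc-binding protein of the small subunit head, had levels of 13.70 to 13.77 in group 2 and 13.88 to 13.96 in group 5, a difference of 0.18 ± 0.045 (SE, adjusted p = 0.0515). Rpl3 had 12.79 to 12.97 and 13.04 to 13.26, a difference of 0.25 ± 0.064 (SE, adjusted p = 0.0548). For both genes the groups did not overlap, but 0 genes were called without rat 4 or 5 of group 2 or rat 5 of group 5, and 1 without rat 1 of group 2 or rat 2 of group 5. With 30% and 15% less food 0 genes were called at day 4 by limma, where 3.05% and 0.113% of all genes were called higher and 2.38% and 0.141% lower. At an unadjusted p under 0.05, 5 genes were higher and 0 lower with 30% less food, and 0 were higher and 1 lower with 15%.

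**Figure D4:**
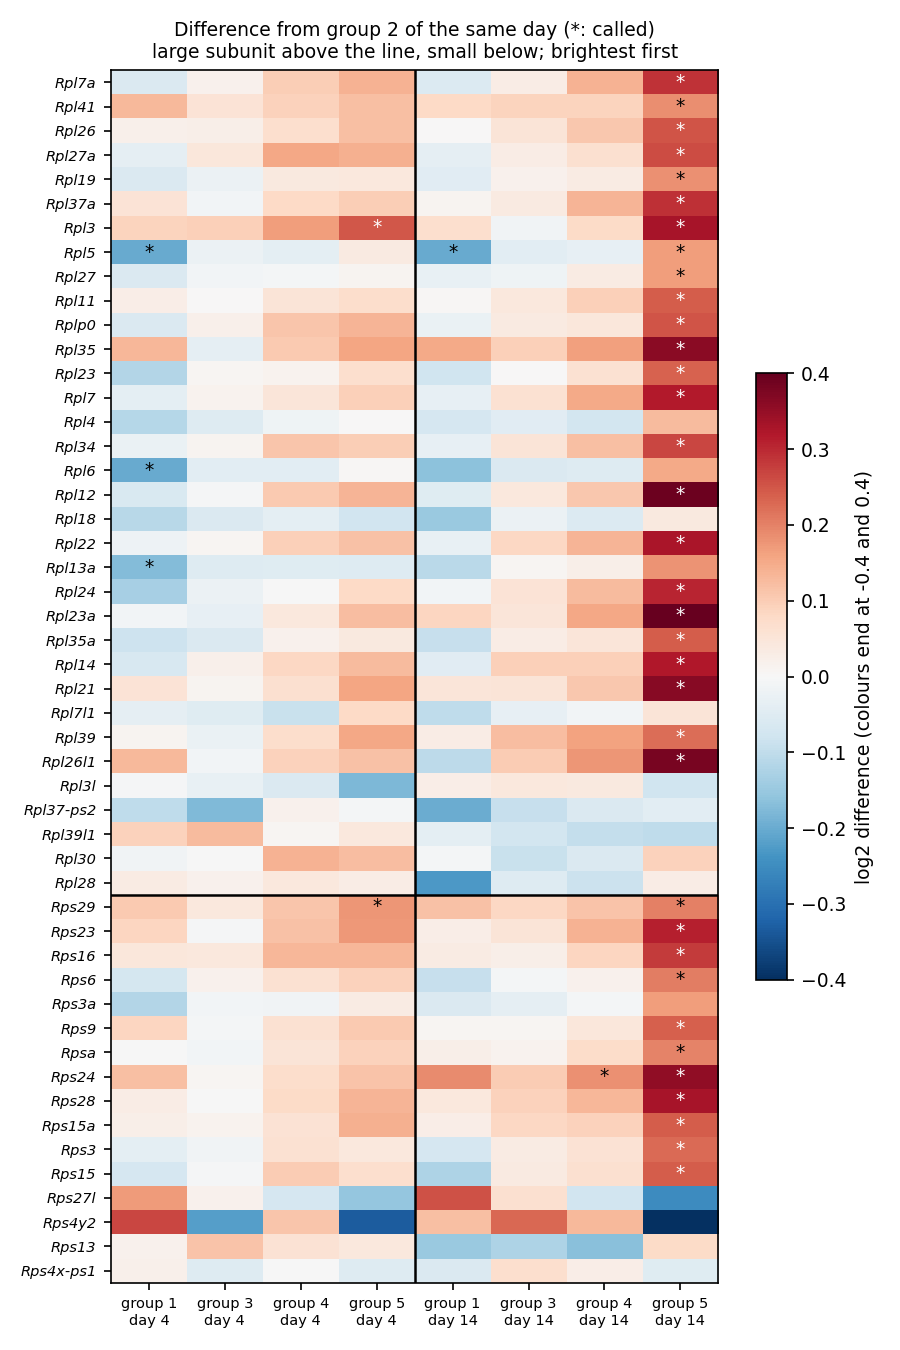
Log2 difference of groups 1, 3, 4 and 5 from group 2 of the same day (columns) for the 50 genes (rows, large subunit above the line, brightest first), red for higher and blue for lower, with an asterisk for called genes. The column of group 5 at day 14 is red for 44 of the 50 genes, with 35 asterisks, and blue for 6, Rps4y2 and Rps27l the most, and the other columns hold 0 to 3 asterisks.

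The slope over the restricted groups, which uses neither control, was steeper at day 14. Given per 45 percentage points of restriction (60% against 15%), it was called positive for 36 of the 50 genes, against 5.09% of all genes, and negative for 1, against 7.85%, with a median of 0.22. Among the genes called, the steepest positive slopes were those of Rpl12 (0.36 ± 0.058), Rpl23a (0.35 ± 0.066), Rpl3 (0.35 ± 0.064) and Rpl21 (0.32 ± 0.067), each with its SE over 15 rats. Rps27l was the 1 gene called negative (-0.31 ± 0.10 (SE), adjusted p = 0.0718). The slope of Rps4y2 was larger in size but was not called (-0.65 ± 0.29 (SE), adjusted p = 0.178), and 3 dim genes that were not called had negative slopes of -0.13 to -0.023. At day 4 the median slope was 0.084 and limma called 0 genes, against 0.0914% of all genes positive and 0.0633% negative, with 11 positive and 0 negative at an unadjusted p under 0.05. The slope at day 14 and the comparisons of group 5 use the same 5 rats, and most of the slope lies between 30% and 60%, as the group means of the bright genes show.

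Between the controls, a few large subunit genes were lower in the unfasted rats. At day 4 the unfasted group 1 had 3 genes called lower than group 2, against 11.5% of all genes, and 0 higher, against 9.76%. Rpl5 was at 12.70 to 12.86 in group 1 and 12.94 to 13.01 in group 2, a difference of -0.20 ± 0.050 (SE, adjusted p = 0.0185). Rpl6 differed by -0.20 ± 0.056 and Rpl13a, which can leave the ribosome to silence mRNAs of inflammation, by -0.17 ± 0.052 (SE each), and the groups did not overlap in any of the 3. In all, 4 of the 50 genes were lower in group 1 without overlap, as were 7.29% of all genes. At day 14 Rpl5 alone was called lower (-0.20 ± 0.059 (SE), adjusted p = 0.0642), against 5.92% of all genes, and 0 genes were called higher, against 7.26%. Its levels were 12.72 to 12.80 in group 1 and 12.88 to 13.04 in group 2. Without 1 of rats 1 and 5 of group 2 or rats 1, 3 and 4 of group 1 the call was lost, and without rat 3 of group 2 it was 2 genes. At both days the share of the 50 genes called lower lies under that of all genes. The share lower without overlap at day 4 is close to that of all genes.

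Against the unfasted group 1 as the other control, group 5 at day 14 had 38 genes called higher and 1 lower. Of all genes, 15.2% were called higher and 18.9% lower, and the median difference over the 50 genes was 0.25. Group 5 differs from group 1 in the overnight fast as well as in food, and this comparison cannot tell them apart. The largest rises were in Rpl26l1 (0.49 ± 0.11), Rpl12 (0.44 ± 0.072), Rpl5 (0.37 ± 0.062), Rps15 (0.37 ± 0.078) and Rpl14 (0.37 ± 0.080), each with its SE (n = 5 and 4). Rps27l, with 8.27, 8.35, 8.39 and 8.58 in group 1, was the 1 gene called lower, at -0.51 ± 0.098 (SE, adjusted p = 0.00304), and its groups did not overlap. Called higher against both controls were 32 of the 50 genes, and for 31 of these the slope at day 14 was also called positive. All 3 comparisons share the rats of group 5.

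In milder or shorter restriction, group 1 as control gave fewer calls than for group 5 at day 14. Here too the overnight fast goes with the cut in food and cannot be told apart from it. At day 14, 30% less food had 4 genes called higher (12.2% of all genes) and 1 lower (12.5%), and 15% less food 1 higher (11.2%) and 0 lower (11.2%). At day 4, 60% less food had 11 higher (13.3%) and 1 lower (10.5%), 30% less food 6 higher (13%) and 1 lower (9.69%), and 15% less food 1 higher (8.06%) and 1 lower (8.26%). Only with 60% less food at day 4, with all rats kept, was the share called higher above that of all genes. Rpl5 was among the genes called higher in all 5 of these comparisons, by 0.16 to 0.24. It was also called higher in group 2, fasted with food ad libitum, than in group 1 at both days. Rps27l was the gene called lower at 30% and 60%, by -0.24 ± 0.078 and -0.32 ± 0.072 at day 4 and by -0.33 ± 0.076 with 30% less food at day 14 (SE each). Rpl35 was the gene called lower with 15% less food at day 4 (-0.17 ± 0.056 (SE)). These counts moved with single rats. At day 4, calls in both directions together fell with 60% less food from 12 to 6 without rat 2, 3 or 5 of group 1 or rat 2 of group 5 and to 7 without rat 5 of group 5. With 30% less food they fell from 7 to 2 without rat 2 or 3 of group 1 or rat 1 of group 4, to 3 without rat 3 of group 4 and to 4 without rat 5 of either group. With 15% less food they fell from 2 to 1 without rat 1 or 5 of group 1 or rat 2 of group 3. At day 14, calls with 30% less food went from 5 to 1 without rat 2 of group 1, to 2 without rat 1 of group 1, to 3 without rat 1 or 4 of group 4 and to 8 without rat 2 of group 4. With 15% less food the call was lost without rat 1, 2 or 4 of group 1 or rat 1, 2 or 5 of group 3.

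Between the days, the clearest differences were in group 5. At day 14, 5 genes were called higher than at day 4, against 3.9% of all genes, and 0 lower, against 2.81%, with a median difference of 0.15 over the 50 genes. They were Rpl12 (0.25 ± 0.069), Rpl37a (0.23 ± 0.060), Rpl35 (0.22 ± 0.063), Rps15 (0.22 ± 0.065) and Rpl7 (0.20 ± 0.058), each with its SE and with adjusted p between 0.061 and 0.091. This count ranged from 0 to 9 when single rats were left out: it was 0 without rat 1 or 3 of day 4 or rat 1, 2 or 5 of day 14, 2 or 3 without rat 2, 4 or 5 of day 4 or rat 4 of day 14, and 9 without rat 3 of day 14. In groups 1 to 4, limma called 0 of the 50 genes in either direction, with medians of -0.0041 to 0.031. Of all genes, 0% were called in group 1 and 0.00703% higher and 0% lower in group 2, against 8.93% higher and 3.85% lower in group 3 and 3.64% higher and 1.84% lower in group 4. At an unadjusted p under 0.05 there was 1 gene lower in group 1, 0 in group 2, 1 higher in group 3 and 1 lower in group 4.

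Whether the rise over group 2 differed between the days was tested by the interaction of day and group. For group 5 the median interaction was 0.14 and 43 of the 50 were positive, all 38 bright genes among them, but limma called 0 genes, where 0.844% of all genes were called positive and 1.2% negative. At an unadjusted p under 0.05, 18 genes were positive and 0 negative, of which Rps24 had the lowest p (0.24 ± 0.077 (SE), adjusted p = 0.151) and Rpl23a the largest size (0.28 ± 0.096 (SE)). A larger rise at day 14 than at day 4 was therefore not shown for any single gene by this fit. The counts of signs and of unadjusted p have no share of all genes beside them, and the bright genes varied together within groups. For groups 1, 3 and 4 the interaction called 0 genes as well, with medians between 0.0001 and 0.042. Of all genes it called 0% for group 1, 0.373% positive and 0.218% negative for group 3 and 0.0492% positive and 0.0844% negative for group 4. At an unadjusted p under 0.05, 1 of the 50 genes was negative for group 1, 0 passed for group 3 and 1 was negative for group 4.

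The bright genes also varied together within groups. Over the 49 rats the median correlation between pairs of them was 0.78 (703 pairs), and 0.65 after each group's mean was taken out. These values describe arrays that share a normalization and a scan, and the rats are of 10 groups. Each bright gene correlated with the mean of the other bright genes by 0.53 (Rpl18) to 0.96, whereas Rps27l had -0.55, Rpl3l -0.40 and Rps4y2 -0.30. Once group means were removed Rps27l was at -0.0009. Within groups the bright genes had a median SD of 0.063 on the log2 scale, against 0.13 for all genes.

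Other genes of the ribosome pathway were read from lists, in the comparison of group 5 with group 2 at day 14. Of all genes, 8.88% were called higher and 10.9% lower there. Of 57 measured genes of ribosome assembly, 11 were called higher and 0 lower, with a median of 0.087. Polr1c, a subunit shared by RNA polymerases I and III, rose by 0.71 ± 0.11 (SE), Mphosph10, of the small subunit processome, by 0.55 ± 0.15, and Tsr1, a factor of small subunit maturation, by 0.47 ± 0.17 (SE each). Of 13 other translation genes whose mRNAs are of TOP type, 3 were called higher and 1 lower, with a median of 0.096. Hnrnpa1 (0.38 ± 0.12), the elongation factor subunit Eef1g (0.24 ± 0.064) and the initiation factor subunit Eif3h (0.24 ± 0.069) rose, and the histone chaperone Nap1l1 fell by 0.38 ± 0.14 (SE each). Of 22 nutrient sensing genes 7 were called higher and 0 lower, among them Ddit4 (1.65 ± 0.46) and Sesn1 (1.18 ± 0.32), both inhibitors of mTORC1, and Myc (1.65 ± 0.51; SE each).

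Mitochondrial ribosomal protein genes, which serve the separate ribosome of mitochondria, did not share the rise. Of 73 measured, 1 was called higher and 13 lower, with a median of -0.087, where 8.88% of all genes were called higher and 10.9% lower. Of 707 other genes as bright as the 38, 83 were called higher and 155 lower, with a median of -0.049. In the unfasted control at day 4, 11.5% of all genes were called lower than in group 2 and 9.76% higher. There 28 of 57 assembly genes were called lower and 0 higher (median -0.22), led by Nob1 (-0.65 ± 0.075) and Rrn3 (-0.58 ± 0.055). Of the 13 TOP-type genes, 9 were called lower and 0 higher, led by Eif4b at -0.73 ± 0.074 (SE each). These counts are given as descriptions, since no test between the lists was run.

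**Figure D5:**
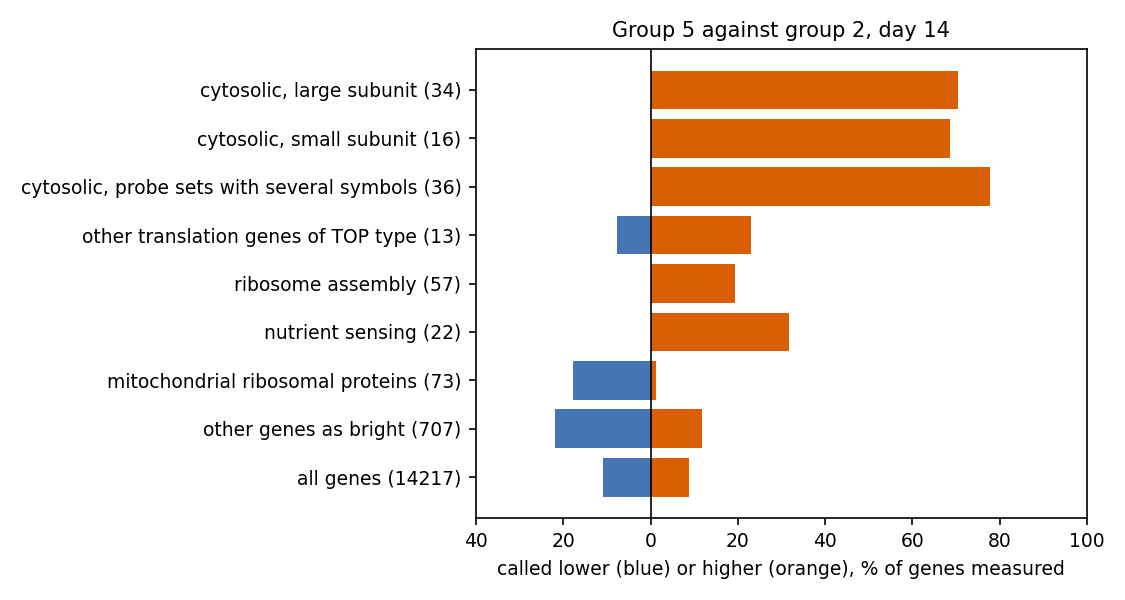
Share of the genes of each list called higher (orange, to the right) or lower (blue, to the left) in group 5 against group 2 at day 14, in percent of the genes or probe sets measured, whose number stands in parentheses. The 3 sets of cytosolic ribosomal proteins reach the highest shares of higher calls and hold 0 lower calls, and mitochondrial ribosomal proteins show more lower than higher calls.

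The tissue was liver by its markers: Alb had a mean log2 level of 14.99 in group 2 and 14.98 in group 5 at day 14. Some markers of other cells were called in the same comparison, where 8.88% of all genes were called higher and 10.9% lower. Their part in the ribosomal result was not tested. Red cell markers fell: 2 of 3 measured were called lower, and their summed intensity ran from 7365 to 10641 in group 2 and from 1224 to 3476 in group 5, with Hbb at 13.16 and 11.02 and Alas2 at 8.14 and 6.17. T and NK cell markers had 3 of 9 called lower (summed intensity 635 to 762 and 555 to 618) and B cell markers 1 of 3 (1828 to 3188 and 1283 to 2288). Most of the B cell sum is Cd74, at 11.21 in group 2 and 10.78 in group 5. Cd79b (6.33 and 6.18) and Ms4a1 (5.69 and 5.29) add little to it. Stellate cell markers had 1 of 8 called lower (2120 to 3208 and 1591 to 2847). Of that list, Dcn, Lrat and Des had higher means in group 5 than in group 2 and the other markers lower means. Kupffer cell markers (6 measured, 7734 to 11472 and 7144 to 9953) and dividing cell markers (6 measured, 191 to 260 and 194 to 217) had 0 calls. Of 9 hepatocyte markers 1 was called higher and 2 lower (171394 to 178404 and 164397 to 171109), of 5 endothelial markers 1 was higher (5295 to 5876 and 5343 to 6220), and of 4 bile duct markers 1 was higher (442 to 520 and 491 to 808). The defining markers of T cells, Cd3d at 5.19 and 5.23 and Cd3e at 6.06 and 6.04, and of dividing cells, Mki67 at 4.08 and 3.92, were dim in both groups.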

How the data were processed

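Liver RNA of each rat was hybridized to a 1-colour Affymetrix rat array. Per the labels and the study's methods, the authors used Affymetrix Expression Console for quality control and RMA for normalization (affy 1.38.1 in R 3.0.1), which corrects background, quantile-normalizes and summarises each probe set. The deposited values are intensities on a linear scale, rounded to whole numbers (8 to 33095, median 83), for 31042 probe sets. Rounding gives steps of log2 0.017 at the median. Quantile normalization sets all arrays to 1 distribution, so a change shared by most genes would not be seen.

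Here log2 of the intensity was used. Of the probe sets, 20826 had 1 symbol, 436 several and 9780 none; where a gene had several single-symbol probe sets, the brightest on average was kept. Groups were compared by limma 3.58.1 in R 4.3.3, each comparison in a fit of its own groups, with Benjamini-Hochberg adjustment over all 14217 genes and a threshold of 0.1, the false discovery rate of the methods; the study's own test, EBarrays, was not installed. Tables were made in Python 3.11.15 (numpy 2.4.6, pandas 2.3.3). The number of arrays limits the precision. On simulated data for 60% less food against group 2 at day 14 (14217 genes), 94% of 100 genes changed by log2 1 and 79% of 100 changed by 0.5 were found, with 18 false calls among 191. The rises of the ribosomal protein genes are smaller than those sizes. The changed genes were drawn from all genes, with noise independent between genes. Bright ribosomal genes had a smaller spread (median SD within groups 0.063 against 0.13) and varied together, so these shares do not hold for them.

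Arrays of a group correlated with a median of 0.991 to 0.994, and no array was a copy of another. Labels carry no replicate numbers, so rats are numbered in order of accession as names only. Genes named are the 5 called genes with the largest rise and fall in each comparison, the 5 brightest and dimmest, the 5 with the widest and narrowest range of group means, all genes on role lists, and 2 to 4 called genes of other lists; Rps3a, Rps13 and single marker genes were named after their values were seen, and the split into bright and dim at log2 8 was likewise made then. Members and lists were chosen with earlier results of these data known, and the lists were written from general knowledge. Promoter windows of 300 bases (250 before and 50 after the start) came from RefSeq, GRCr8. The alternatives were a threshold of 0.05, the mean of a gene's probe sets, median centring, repeated quantile normalization, no genes under the 25th percentile, array weights, 1 fit of all 10 groups, and leaving out each rat.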

Additional observations from a re-analysis of the deposited data

Results flagged for a closer look

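In the fasted control at day 14, rat 2 stood apart from the other 4 rats by its mean deviation of the 38 bright genes, -0.1369 on the log2 scale, while the others lay between -0.038 and -0.0056. Its gap to the nearest other rat, as a share of the group's range, was above the 95% critical value of Dixon's test for 5 rats (0.71). This was 1 of 20 groups of values tested, about the number that chance gives. Without that rat, 29 of the 50 genes were called in group 5 against this control, against 35 with all rats.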

How the results depend on the processing

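The rise in group 5 at day 14 against group 2 had 35 calls as reported, 29 at a threshold of 0.05 and 35 to 40 under the other settings, and 28 to 33 when single rats were left out; against group 1 the range was 32 to 40 and for the slope at day 14 it was 27 to 37. No median over the 50 genes moved by more than the spread between rats. Counts in the weaker comparisons depended on the setting; apart from the stricter threshold and the smaller number of rats, the cause was not tested. At 0.05, calls fell to 0 for 60% less food at day 4, group 1 at day 14, and 30% less food at day 14 (all against group 2), to 0 for 15% less food at day 14, 1 for 15% and 2 for 30% and 6 for 60% at day 4, and 3 for 30% at day 14 (all against group 1), and to 0 for day 14 against day 4 in group 5. One fit of all 10 groups, which shares a single spread, gave against group 2 at day 4 10 calls for group 1, 4 for group 4 and 13 for group 5, and at day 14 8 for group 1 and 12 for group 4. The same fit gave against group 1 4, 15 and 24 calls for groups 3, 4 and 5 at day 4 and 4 and 17 for groups 3 and 4 at day 14. It also gave 1 and 32 calls between the days in groups 3 and 5, 7 in the interaction of group 5 and 3 for the slope at day 4. Repeated quantile normalization gave 6 calls for group 1 at day 4, 4 for group 1 and 5 for group 4 at day 14 against group 2, 4 and 11 for groups 3 and 4 at day 4 and 3 and 11 at day 14 against group 1, and 1 in the interaction of group 5. Leaving out dim genes gave 5 calls for group 1 at day 4 and 3 each for groups 1 and 4 at day 14 against group 2, 4 and 12 for groups 3 and 4 at day 4 and 2 for group 3 at day 14 against group 1, and 1 and 11 between the days in groups 3 and 5. Array weights gave 3 and 2 calls for groups 1 and 4 at day 14 against group 2, 1 and 17 between the days in groups 3 and 5, and 1 in the interaction of group 5. Median centring gave 4 calls for group 1 against group 2 at day 14, and 2 and 11 for groups 3 and 4 against group 1 at day 14. The mean of probe sets gave 3 calls for group 4 against group 2 at day 14 and 1 between the days in group 3. Leaving out single rats gave 3 to 4 calls for group 1 at day 4, 0 to 2 for group 5 at day 4, 0 to 2 for group 1 and 0 to 2 for group 4 at day 14 against group 2; 1 to 2, 2 to 10 and 6 to 13 for groups 3, 4 and 5 at day 4, and 0 to 1 and 1 to 8 for groups 3 and 4 at day 14 against group 1; and 0 to 9 between the days in group 5. Among single genes named, 5137 of 5286 values kept their direction and side of the threshold, 84 were gained, 60 were lost, 5 moved and 0 reversed. No paired analysis was possible because each rat was sampled once.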
